A study of Mus musculus with 19 samples.

Results

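Cells of the embryonic mouse kidney that carried a green reporter under the control of Six2 were compared with the remaining cells of the same organ. The comparison used 6 RNA sequencing libraries of 19 in the series. The 3 GFP+ and 3 GFP- libraries came from kidneys of E16.5 embryos (the number counts days after conception) of the CFW strain, and both groups carried the Six2TGC/+ allele. Six2TGC is a transgene in which regulatory sequence of Six2 drives a fusion of GFP and the recombinase Cre, so the sort follows that sequence rather than SIX2 protein, and GFP- cells carry the transgene too. The GFP- group is every other cell sorted from the kidney, a mixture of many types. Libraries were paired by the replicate number in their titles. Of 20164 genes in the E16.5 table, the 12035 that reached a value of 1 in at least 3 of these 6 libraries were tested. No label states that replicate libraries are from different animals. The p-values therefore describe the spread among these libraries alone, and that spread may be technical.

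SIX2 is a homeodomain transcription factor of the cap mesenchyme, the cells that surround the tips of the branching ureteric bud and give rise to the nephron epithelium. It keeps these progenitors from differentiating. Signals from the ureteric tip, WNT9B and FGF among them, sustain the progenitors and also induce some of them to form a pretubular aggregate and then a renal vesicle, with WNT4 as a central signal of that step. Around and between the caps lies the stroma, a separate lineage that expresses FOXD1 at the cortex and supplies interstitial matrix and mural cells.

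Values are RPKM as the authors deposited them, a read number divided by gene length and by library depth. A fold change is the log2 ratio of GFP+ over GFP- cells on the scale of log2(RPKM + 1), given with its standard error (SE), and a gene was called at an adjusted p under 0.05 in limma's moderated test with the pairs as a block. Estimated depth, in units of 1e+06 reads, was 30.9 to 40.7 in GFP+ libraries and 24.5 to 42.7 in GFP- libraries. Between 11232 and 11255 genes reached 1 RPKM in GFP+ libraries, and between 11778 and 11989 in GFP- libraries. These are bulk measurements, in which fewer cells of a type and less RNA per cell cannot be told apart.

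The upstream sequences of Six2 and of its nearest tested neighbour Six3 are shown because Six2 drives the sort and Six3 was among the genes most enriched with it. Each is the 250 bases before the RefSeq start on the GRCm38.p6 assembly (mm10), at chr17:85688255-85688504 on the minus strand for Six2 and at chr17:85620584-85620833 on the plus strand for Six3, written 5′ to 3′ along the gene. Capitals mark CCAAT, or ATTGG for the opposite strand, a motif of many promoters.
Six2: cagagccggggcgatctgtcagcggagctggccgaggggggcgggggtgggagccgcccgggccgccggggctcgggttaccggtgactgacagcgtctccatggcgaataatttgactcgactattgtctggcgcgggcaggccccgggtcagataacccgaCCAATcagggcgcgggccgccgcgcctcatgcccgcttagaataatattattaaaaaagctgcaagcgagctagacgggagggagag
Six3: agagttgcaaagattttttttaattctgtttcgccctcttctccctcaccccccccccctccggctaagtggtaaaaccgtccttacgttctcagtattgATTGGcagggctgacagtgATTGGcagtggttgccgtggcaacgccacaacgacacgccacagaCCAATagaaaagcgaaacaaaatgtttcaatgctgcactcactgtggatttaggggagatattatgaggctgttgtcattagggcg
The Six2 sequence held the motif 1 time and had a GC content of 64.8%, and the Six3 sequence held it 3 times and had 48.8%. Of 27025 mouse sequences of this kind, 34.5% held the motif at least 1 time and 2.98% at least 3 times. A match is a description of the letters and not of a bound site.

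The 4 genes taken as markers were checked first, and all 4 were higher in GFP+ cells. Six2 sequence drives the reporter, so the rise of Six2 is no separate check of the sort. Six2 (mm10 chromosome 17, 85684277 to 85688274, ENSMUSG00000024134.11) was at 312, 348 and 346 RPKM in GFP+ libraries 1 to 3 and at 2.70, 2.88 and 16.8 in GFP- libraries 1 to 3. The groups did not overlap, and GFP- library 3 held more Six2 than the other GFP- libraries, at 4.85% of its GFP+ partner. The log2 fold change was 5.73 ± 0.38 (limma, adjusted p = 1.14e-05). Crym (chromosome 7, 120186380 to 120202111), which encodes a thyroid hormone binding protein, was at 278, 364 and 208 RPKM in GFP+ libraries and at 5.74, 5.06 and 8.84 in GFP- libraries, again with no overlap (5.23 ± 0.24, adjusted p = 1.84e-06). Eya1 (chromosome 1, 14168954 to 14310235), a phosphatase and transcriptional partner of SIX2, was at 87.6, 70.1 and 84.0 RPKM in GFP+ libraries and at 2.47, 1.33 and 3.97 in GFP- libraries (4.57 ± 0.15, adjusted p = 5.02e-07).

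Wnt4 (chromosome 4, 137277489 to 137299726), the signal of nephron induction, was at 65.3, 62.0 and 59.1 RPKM in GFP+ libraries and at 12.4, 13.8 and 8.45 in GFP- libraries (2.35 ± 0.12, adjusted p = 3.28e-06). Its groups did not overlap either, but a larger share of it was found outside the GFP+ fraction than for the other markers. In pairs 1 to 3 the GFP- level of Wnt4 was 19%, 22.3% and 14.3% of the GFP+ level, where for Crym it was 2.06%, 1.39% and 4.25%.

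**Figure D1:**
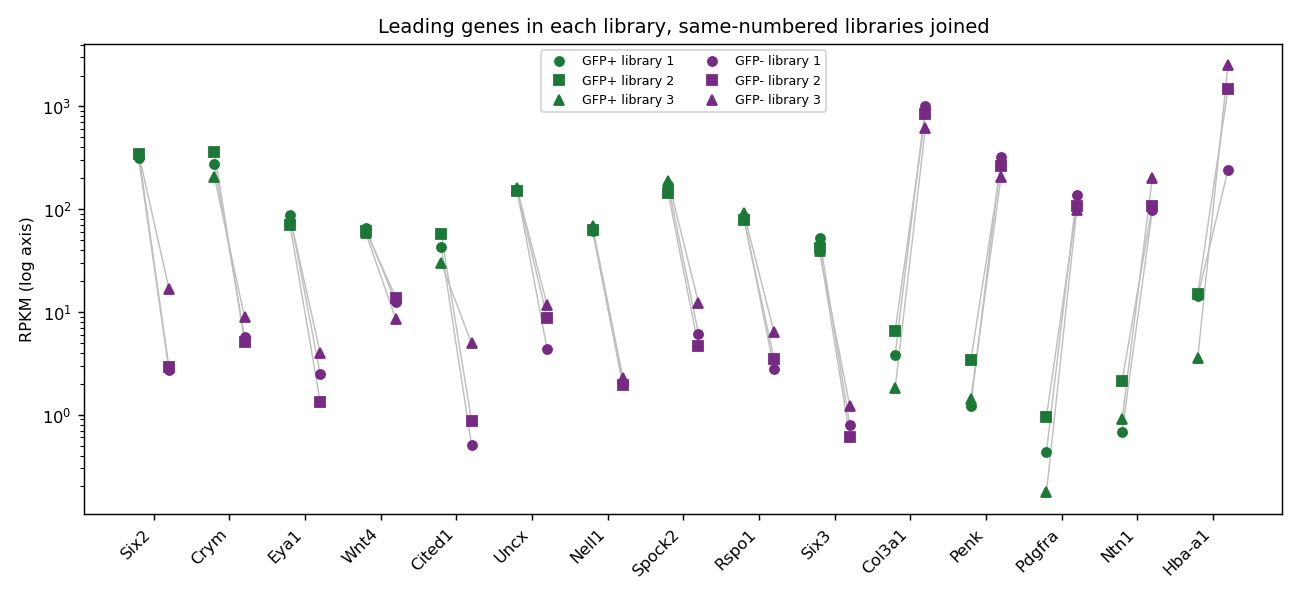
RPKM on a log axis of 15 leading genes in each library, GFP+ libraries in green on the left of each gene and GFP- libraries in purple on the right, with same-numbered libraries joined by a line. For each of the 10 genes drawn from Six2 to Six3 the GFP+ points lie above all GFP- points (Wnt4 at 59.1 to 65.3 against 8.45 to 13.8 RPKM), and for the 5 from Col3a1 to Hba-a1 they lie below them.

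Over all genes tested, 6427 were called, which is 53.4%, with 3626 higher in GFP+ cells (30.1%) and 2801 lower (23.3%). The counts of every gene list below are to be read beside these shares. Called changes of at least 1 on the log2 scale were fewer upward than downward, with 609 genes higher (5.06%) and 1311 lower (10.9%). The groups did not overlap for 6297 genes (52.3%), and the median log2 fold change was 0.11. The split between directions depended on scaling: 56.4% of calls were higher as the values were deposited, and 46.4% (2340 higher, 2702 lower) when all columns were given the same sum, with the median then at 0.04. No called gene was called in the opposite direction under any of the 14 alternatives tried.

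The 12 genes with the largest rise were Six2, Crym, Six3, Eya1, Nell1, Spock2, Col2a1, Uncx, Rspo1, Fam107a, Cited1 and Cldn9. Uncx, a homeobox gene known from somite patterning, had 155, 151 and 160 RPKM in GFP+ libraries and 4.32, 8.76 and 11.6 in GFP- libraries (4.17 ± 0.20, adjusted p = 2.54e-06). Spock2, a proteoglycan of the extracellular matrix, had 171, 143 and 190 RPKM in GFP+ libraries and 6.13, 4.61 and 12.3 in GFP- libraries (4.38 ± 0.16, adjusted p = 6.67e-07). Nell1, a secreted protein known from bone and cartilage, had 61.7, 63.2 and 68.3 RPKM in GFP+ libraries and 2.03, 1.95 and 2.29 in GFP- libraries. It thus varied little within either group (4.40 ± 0.09, adjusted p = 1.26e-07).

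Rspo1, a secreted enhancer of WNT signalling, had 84.6, 78.9 and 91.3 RPKM in GFP+ libraries and 2.77, 3.49 and 6.32 in GFP- libraries (4.10 ± 0.15, adjusted p = 7.25e-07). Cited1, a coactivator of the least differentiated cap cells, was more variable, with 42.6, 57.0 and 29.7 RPKM in GFP+ libraries and 0.511, 0.873 and 4.95 in GFP- libraries (4.06 ± 0.44, adjusted p = 0.000177). Fam107a, an actin-associated protein, stood at 31.6 to 32.7 RPKM in GFP+ libraries and at 0.423 to 2.11 in GFP- libraries, and Cldn9, a claudin of tight junctions, at 32.2 to 40.3 against 0.903 to 1.61. All 12 of these genes had their highest GFP- value in library 3. Whether GFP+ cells in that library account for this was not tested. With pair 3 left out the number of calls was 7681, and all 12 genes kept theirs.

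Regulators of the progenitor state rose as a group. Of 28 listed transcription regulators 25 were tested (3 were too low), 21 rose and 1 fell, with a median log2 fold change of 1.36 against 0.11 for all genes. Pax2, a paired-box factor needed for nephron formation, had 89.0, 62.2 and 111 RPKM in GFP+ libraries and 3.79, 5.75 and 10.7 in GFP- libraries (3.57 ± 0.19, adjusted p = 3.65e-06). Osr1, which marks the intermediate mesoderm and its descendants, was at 51.7 to 60.3 RPKM in GFP+ and 3.33 to 7.13 in GFP- libraries (3.37 ± 0.15). The homeobox genes Meox1 and Meox2 rose by 2.94 and 1.93 on the log2 scale, although Meox2 was low, at 4.03 to 5.44 RPKM in GFP+ and 0.488 to 0.650 in GFP- libraries.

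Some regulators were shared with the remaining cells. Sall1, a zinc finger factor of the cap, was at 86.6 to 126 RPKM in GFP+ and 24.1 to 36.7 in GFP- libraries (1.91 ± 0.14), and Wt1, which acts in progenitors and again in podocytes, at 82.5 to 102 and 32.7 to 49.7 (1.25 ± 0.12). Dach1, Dach2 and Satb1 were not called (adjusted p = 0.203, 0.176 and 0.321). Tcf21, a factor of stroma and podocytes that was also listed here, fell by 2.50 ± 0.15, with 33.8, 35.4 and 31.8 RPKM in GFP+ libraries and 258, 203 and 142 in GFP- libraries. Foxd1, the marker of cortical stroma, was present in both fractions at 44.3, 28.6 and 35.1 RPKM in GFP+ libraries and 70.4, 62.5 and 103 in GFP- libraries, without overlap (−1.10 ± 0.16, adjusted p = 0.000705).

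Posterior Hox genes, which specify the level of the body axis and of which the group 11 genes are needed for kidney development, were also mostly higher. Of 18 listed 15 were tested, 13 rose and 1 fell (median 1.01). Hoxd12 rose most, with 22.9, 18.7 and 19.6 RPKM in GFP+ libraries and 0.755, 0.674 and 1.08 in GFP- libraries (3.54 ± 0.13, adjusted p = 6.67e-07). Hoxb9 and Hoxb8 followed at 2.47 ± 0.12 and 2.16 ± 0.16. Within the D cluster the log2 fold change was lower at each gene from Hoxd12 to Hoxd8: Hoxd11 was at 0.81 ± 0.10, Hoxd10 at 0.75 ± 0.14, Hoxd9 was not called (−0.24, adjusted p = 0.0929) and Hoxd8 fell by 0.34 ± 0.10 (adjusted p = 0.0213). Hoxd11 and Hoxd10 differed by less than their SE, and the order itself was not tested. The call of Hoxd8 was lost without the block and without pair 1 or pair 2, when 0 genes of the list were lower.

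Surface and secreted proteins of the progenitors were divided. Of 30 listed 28 were tested, 20 rose and 7 fell (median 1.68). Gfra1, the coreceptor for GDNF, was at 54.3 to 73.5 RPKM in GFP+ and 2.32 to 6.34 in GFP- libraries (3.87 ± 0.20), while its ligand gene Gdnf, a signal from mesenchyme to the ureteric bud, had 19.5, 15.2 and 24.0 RPKM in GFP+ libraries and 24.6, 29.5 and 41.4 in GFP- libraries (−0.67 ± 0.12, adjusted p = 0.00291, or 0.119 with all 15 libraries in 1 fit). Fgf20, a growth factor of the cap, was at 13.3, 17.2 and 15.1 RPKM in GFP+ libraries and at 0.207, 0.228 and 0 in GFP- libraries (3.82 ± 0.13). Bmp7, which maintains progenitors, rose by 3.02 ± 0.10, and Cxcr4, the receptor of the stromal chemokine CXCL12, by 3.06 ± 0.16.

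Its ligand gene Cxcl12 showed the reverse, with 10.3, 11 and 12 RPKM in GFP+ libraries and 50.3, 55.6 and 58.3 in GFP- libraries (−2.2 ± 0.09, adjusted p = 8.95e-07). Cadherins of the list differed among themselves: Cdh4 rose by 2.74 ± 0.14 and Cdh2 by 1.68 ± 0.09, and Cdh11 fell by 0.83 ± 0.13. Itga8, an integrin subunit of the cap, was close between the fractions, at 46.8, 25.9 and 40.4 RPKM in GFP+ and 35.7, 24.8 and 19.1 in GFP- libraries (0.49 ± 0.17, adjusted p = 0.0414, a call lost under 8 alternatives, as with adjusted p = 0.167 without the block). Itga9, another integrin subunit, fell by 3.15 ± 0.09, Ptn, a heparin-binding growth factor, by 2.45 ± 0.09, and Gpc3, a heparan sulphate proteoglycan, by 1.84 ± 0.16.

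**Figure D2:**
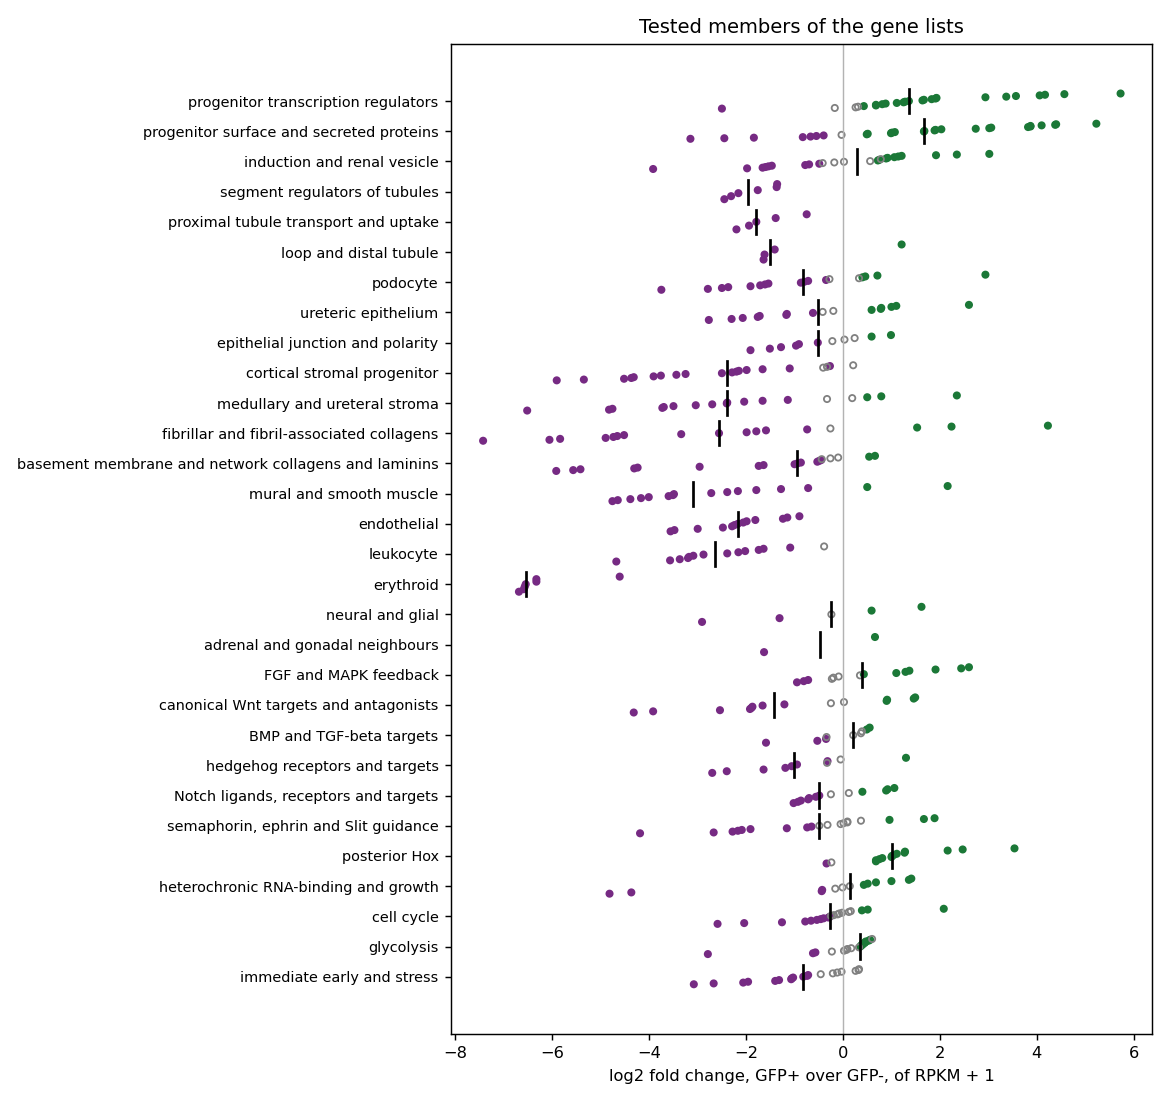
Log2 fold change of GFP+ over GFP- cells for every tested member of the 30 gene lists, 1 list per row. Filled points are called genes, green where higher and purple where lower in GFP+ cells, open grey points were not called, and black bars are list medians (1.36 for progenitor regulators and −2.40 for cortical stromal genes).

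Genes of nephron induction and the renal vesicle split between the fractions, with 10 of 24 tested higher in GFP+ cells and 9 lower (25 listed, median 0.29). Over all genes 30.1% were higher and 23.3% lower, so a split as such is not particular to this list. Bmper, a secreted BMP modulator, rose most and was at 50.5, 43.1 and 53.1 RPKM in GFP+ libraries and 5.06, 4.33 and 6.14 in GFP- libraries (3.02 ± 0.09, adjusted p = 3.78e-07). Pax8, a paired-box factor switched on at induction, was at 51.7, 52.8 and 55.1 RPKM in GFP+ libraries and 12, 15.2 and 13.1 in GFP- libraries (1.92 ± 0.10, adjusted p = 3.01e-06). Lhx1, a homeobox gene of the vesicle, was low in both, with 4.55, 4.94 and 3.34 RPKM in GFP+ libraries and 3.77, 8.41 and 6.58 in GFP- libraries, and the groups overlapped (−0.42 ± 0.20, adjusted p = 0.111). Dkk1, a secreted WNT antagonist, was at 0.357, 0.367 and 0.194 RPKM in GFP+ libraries and 19.2, 18.9 and 18.3 in GFP- libraries (−3.92 ± 0.12).

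Genes of later nephron segments were low in GFP+ cells. Of 20 segment regulators only 6 passed the limit on low values, so that 14 could not be tested, and all 6 fell. A gene that passed only through its GFP- values had to differ, so the counts for such lists are descriptions. The same limit applies to tested members of any list that were under 1 RPKM in all GFP+ or in all GFP- libraries. Hnf4a, the proximal tubule regulator, was at 0.0266 to 0.110 RPKM in GFP+ and 3.14 to 4.41 in GFP- libraries (−2.16 ± 0.13). Of 20 proximal tubule transport and uptake genes 5 were tested and all 5 fell, among them Pdzk1, a scaffold of apical transporters (−2.2 ± 0.15), and the water channel gene Aqp1 (−1.94 ± 0.14). Of 15 loop and distal tubule genes 4 were tested, of which Sostdc1, Calb1 and Fxyd2 fell and Wfdc2, a secreted protease inhibitor, rose (1.21 ± 0.28, adjusted p = 0.00800). Wfdc2 lost its call when no filter on low values was used, and Fxyd2 with all 15 libraries in 1 fit.

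Podocyte genes mostly fell, with 12 of 18 tested lower and 4 higher (20 listed, median −0.83). Of those listed, 8 were under 1 RPKM in all GFP+ libraries. The tested ones among these, such as Podxl, passed only through their GFP- values and had to differ, so the count is a description. Podxl, which coats the podocyte surface, was at 0.661, 0.644 and 0.699 RPKM in GFP+ libraries and 46.3, 21.7 and 9.59 in GFP- libraries (−3.75 ± 0.34, adjusted p = 6.62e-05). The slit diaphragm gene Nphs1 reached at most 0.0166 RPKM in GFP+ libraries and was at 4.59, 2.24 and 1 in GFP- libraries. Lmx1b, a homeobox gene required in podocytes, went the other way, with at least 9.02 RPKM in every GFP+ library and 1.18, 0.608 and 0.125 in GFP- libraries (2.94 ± 0.25, adjusted p = 4.26e-05). GFP+ cells therefore held Lmx1b at a level above every GFP- library while Nphs1 was near 0. The other 3 that rose, Myo1e, Cd2ap and Nes, changed by 0.71 or less, and 2 members were called higher with equal column sums, with no filter on low values or with all 15 libraries in 1 fit.

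Ureteric and epithelial genes were divided as well. Of 24 ureteric genes 16 were tested, with 6 higher and 8 lower (median −0.52), beside 30.1% and 23.3% of all genes. Gata3 and Gata2, zinc finger factors of the ureteric lineage, fell by 2.07 ± 0.16 and 2.77 ± 0.15, and Cdh16, kidney cadherin, by 2.30 ± 0.24. Etv4, an ETS factor downstream of receptor tyrosine kinases that is not restricted to the ureteric tip, rose by 2.60 ± 0.21, with 63.7, 70.7 and 74.2 RPKM in GFP+ libraries and 6.93, 8.43 and 20.1 in GFP- libraries. Ret, the tip receptor, did not reach the limit for testing. Of 20 genes of epithelial junctions and polarity 11 were tested, 6 fell and 2 rose, and Cdh1, which encodes E-cadherin, was at 0.101 to 0.364 RPKM in GFP+ and 2.20 to 5.22 in GFP- libraries (−1.91 ± 0.19).

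Cortical stromal genes were lower in GFP+ cells. All 20 listed were tested, 17 fell, none rose and the median was −2.40. Ntn1, which encodes the guidance factor netrin-1, was at 0.680, 2.13 and 0.903 RPKM in GFP+ libraries and 97.5, 108 and 202 in GFP- libraries (−5.91 ± 0.25, adjusted p = 1.36e-06). Meis1, a homeobox cofactor, was at 5.60, 5.30 and 5.11 RPKM in GFP+ libraries and 68.0, 68.0 and 67.1 in GFP- libraries, with little spread within a group (−3.44 ± 0.09). Aldh1a2, the retinoic acid synthesising enzyme, was high in both fractions, at 297, 303 and 275 RPKM in GFP+ and 341, 342 and 496 in GFP- libraries, and was not called (−0.41, adjusted p = 0.0877).

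Medullary and ureteral stroma followed the same direction, with 13 of 18 tested lower and 3 higher (20 listed, median −2.40). Of those listed, 8 were under 1 RPKM in all GFP+ libraries. The tested ones among these, such as Tbx2 and Tbx3, passed only through their GFP- values and had to differ, so the count is a description. Penk, the proenkephalin gene of the medullary stroma, was at 1.21, 3.38 and 1.41 RPKM in GFP+ libraries and 320, 265 and 208 in GFP- libraries (−6.52 ± 0.20, adjusted p = 3.79e-07). Tbx2 and Tbx3, T-box factors of the ureteral mesenchyme, fell by 4.83 ± 0.15 and 3.73 ± 0.15. The 3 members that rose were Wnt4, Sox9 and Tshz2. Among the 12 genes that fell most over the whole table were also Pdgfra, the stromal PDGF receptor, at 0.432, 0.951 and 0.175 RPKM in GFP+ and 138, 107 and 98.6 in GFP- libraries, and Ecm1, a matrix protein (−6.17 ± 0.21).

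Most collagen genes of the lists fell. Of 17 fibrillar and fibril-associated collagen genes, all tested, 13 fell and 3 rose (median −2.56). Col3a1, a main collagen of interstitial matrix, was at 3.79, 6.50 and 1.82 RPKM in GFP+ libraries and 1000, 843 and 617 in GFP- libraries (−7.43 ± 0.18, adjusted p = 1.71e-07), the lowest fold change of the genes named here. Col2a1, the main collagen of cartilage, showed the opposite, with 87.2, 67.8 and 137 RPKM in GFP+ libraries and 1.94, 2.48 and 11.4 in GFP- libraries (4.23 ± 0.23, adjusted p = 4.10e-06). The other 2 that rose, Col11a2 (2.24 ± 0.14) and Col9a1 (1.53 ± 0.15), are likewise known from cartilage, but the cartilage collagen genes Col9a2 and Col11a1 fell by 1.79 ± 0.29 and 1.59 ± 0.12, and Col9a3 was not called.

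Of 20 basement membrane and network collagen and laminin genes 19 were tested, 14 fell and 2 rose (median −0.94). The collagen VI genes fell most, with Col6a2 at 1.14 to 1.44 RPKM in GFP+ and 107 to 172 in GFP- libraries (−5.92 ± 0.16). Col18a1 and Col4a6 rose by 0.66 ± 0.19 and 0.54 ± 0.13, calls that were both absent with equal column sums. Col4a1, a basement membrane collagen made by many cell types, differed less, at 117, 86.6 and 137 RPKM in GFP+ and 317, 237 and 149 in GFP- libraries (−1 ± 0.25, adjusted p = 0.0111, or 0.0762 with no filter on low values).

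Mural and smooth muscle genes fell in 14 of 16 tested members (median −3.11). Under 1 RPKM in all GFP+ libraries were 8 of these, which passed only through their GFP- values and had to differ. The count is therefore a description. Pdgfrb, the receptor of mural cells, was at 2.07, 1.70 and 1.74 RPKM in GFP+ libraries and 82.1, 69.0 and 61.3 in GFP- libraries (−4.65 ± 0.10), and Acta2, smooth muscle actin, fell by 4.76 ± 0.14. Des, the muscle intermediate filament desmin, rose, with 57.3, 67.1 and 53.8 RPKM in GFP+ libraries and 16.7, 14.4 and 7.93 in GFP- libraries (2.16 ± 0.16, adjusted p = 1.94e-05). Mcam, an adhesion molecule, rose by 0.50 ± 0.17, a call lost under 8 alternatives.

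Markers of vessels and blood were low in the GFP+ fraction. Under 1 RPKM in all GFP+ libraries were 13 of the 17 endothelial and 13 of the 15 leukocyte genes listed. Those of them that were tested passed only through their GFP- values and had to differ, so the counts are descriptions. All 13 tested endothelial genes fell (17 listed, median −2.17), and their summed level was 10.4 to 18.1 RPKM in GFP+ and 71.6 to 130 in GFP- libraries. Cdh5, the endothelial cadherin, was at 0.0589, 0.354 and 0.0389 RPKM in GFP+ and 7.88, 9.43 and 7.27 in GFP- libraries. Of 14 tested leukocyte genes 13 fell (15 listed, median −2.63), and their sum was 2.89 to 15.8 RPKM in GFP+ and 104 to 155 in GFP- libraries. Csf1r, the macrophage growth factor receptor, was at 0, 0.384 and 0 RPKM in GFP+ libraries and 8.34, 10.4 and 8.68 in GFP- libraries.

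All 7 tested red cell genes fell (16 listed, median −6.55), with a wide spread between GFP- libraries. Hba-a1, an alpha globin gene, was at 14.2, 14.9 and 3.55 RPKM in GFP+ libraries and 241, 1477 and 2512 in GFP- libraries (−6.55 ± 0.76, adjusted p = 0.000249). Globin genes have near copies that can share reads, and Hbb-b2 and Hbb-bt had identical values in all libraries shown, so single globin values are uncertain. Globins made up 0.0231%, 0.0167% and 0.00559% of all values in GFP+ libraries 1 to 3 and 0.398%, 2.06% and 3.81% in GFP- libraries 1 to 3. Red cell RNA thus differed between GFP- libraries by more than did the endothelial or leukocyte sums, and its part in the other changes was not tested. Of 17 neural and glial genes 5 were tested, with 2 higher and 2 lower (median −0.24). Among these Stmn2, a neuronal protein, was at 0.0247, 0.108 and 0 RPKM in GFP+ libraries and 20, 2.53 and 5.51 in GFP- libraries, and Elavl4, a neuronal RNA-binding protein, rose by 1.62 ± 0.13. Of 10 adrenal and gonadal genes 2 were tested (median −0.48), with Inha higher (0.66 ± 0.12, not called with all 15 libraries in 1 fit) and Mc2r lower (−1.63 ± 0.13).

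**Figure D3:**
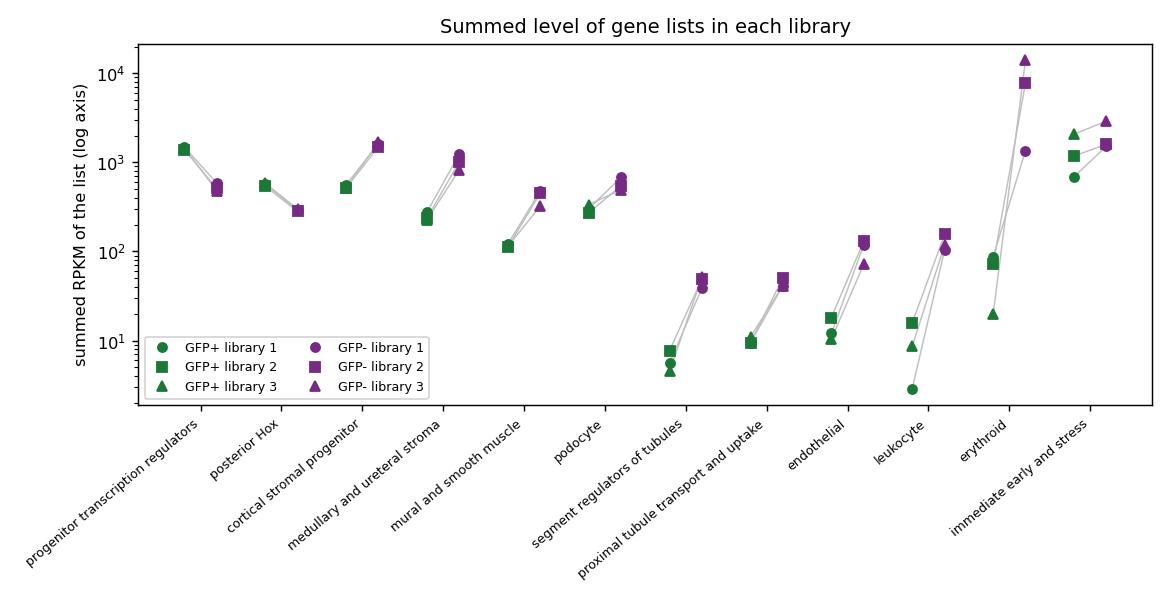
Summed RPKM on a log axis of the members of 12 gene lists in each library, GFP+ libraries in green on the left of each list and GFP- libraries in purple on the right, with same-numbered libraries joined. Progenitor regulators (1390 to 1483 against 480 to 586) and posterior Hox genes lie higher in GFP+ libraries, and the other lists drawn lie lower in each pair. Lists not drawn include ureteric epithelium (186 to 214 against 132 to 191) and loop and distal tubule (15.6 to 29.0 against 15.2 to 26.1), which do not lie lower in each pair. Among the lists drawn, red cell genes spread most between GFP- libraries (19.6 to 86.4 against 1358 to 13970).

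Signalling pathways were described by their targets. Of 14 genes of FGF and MAPK feedback, which FGF signalling switches on and which in part limit it, 7 rose and 3 fell (median 0.39). The share that fell was near the 23.3% of all genes. Beside Etv4, Il17rd, a membrane inhibitor of FGF signalling, was at 24.2, 15.1 and 22.6 RPKM in GFP+ libraries and 2.68, 3.52 and 2.57 in GFP- libraries (2.44 ± 0.19), and the phosphatase genes Dusp4 and Dusp5 rose by 1.91 ± 0.11 and 1.37 ± 0.16. The inhibitors Spry4, Spry2 and Spred1 fell by 0.95 ± 0.15, 0.81 ± 0.09 and 0.72 ± 0.13. Spry1 and Dusp6 were not called, with Dusp6 at 36.8 to 45.5 RPKM in GFP+ and 33.1 to 60.6 in GFP- libraries.

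Of 14 tested WNT targets and antagonists 4 rose, a share near the 30.1% of all genes, and 8 fell (17 listed, median −1.44). Those that rose were Notum, a WNT-inactivating enzyme (1.49 ± 0.29), Sp5, a transcription factor (1.46 ± 0.15), and the feedback inhibitors Axin2 (0.91 ± 0.12) and Znrf3 (0.90 ± 0.13). Axin2 was at 22.9, 17.8 and 18.8 RPKM in GFP+ libraries and 13.4, 10.2 and 7.39 in GFP- libraries. The secreted antagonists Sfrp1 and Dkk1 and the membrane inhibitor Apcdd1 fell by 4.32 ± 0.09, 3.92 ± 0.12 and 2.54 ± 0.23.

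Of 10 hedgehog receptors and targets 7 fell and 1 rose (median −1.01). Gli1, a direct target, was at 5, 4.71 and 6.80 RPKM in GFP+ libraries and 31.3, 29.3 and 39.3 in GFP- libraries (−2.40 ± 0.09), and Gli2 fell by 2.70 ± 0.11. Gas1, a hedgehog coreceptor, rose, with 193, 124 and 186 RPKM in GFP+ libraries and 76.9, 52.9 and 71.0 in GFP- libraries (1.30 ± 0.10, adjusted p = 2.48e-05). Ptch1, receptor and target, was not called (−0.33, adjusted p = 0.101).

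Of 13 tested Notch genes 4 rose, again near the 30.1% of all genes, and 7 fell (16 listed, median −0.49). The target genes Hey1, Heyl and Hes1 rose by 1.06 ± 0.11, 0.92 ± 0.11 and 0.89 ± 0.09. Nrarp, also a target, fell by 1.02, the largest fall of the list. The ligands Jag1 and Dll1 and the receptors Notch1, Notch3 and Notch4 fell by 0.49 to 0.93. The calls of Jag1 and Dll1 were lost without pair 2 (adjusted p = 0.118 and 0.159). Hes1 was at 58.3, 56.5 and 36.2 RPKM in GFP+ libraries and 32.2, 27.1 and 20.1 in GFP- libraries. Of 9 tested BMP and TGF-beta targets 2 rose and 3 fell (12 listed, median 0.21), beside 30.1% and 23.3% of all genes. Only 1 fell without pair 1, pair 2 or the block, with all 15 libraries in 1 fit or with the filter at 5 RPKM. Tgfbi and Id1 rose by 0.55 ± 0.12 and 0.49 ± 0.11, calls that were lost without pair 2.

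Of 19 tested guidance genes 3 rose and 9 fell (20 listed, median −0.49). Robo2, a receptor that restricts the outgrowth of the ureteric bud, and its ligand gene Slit2 rose by 1.89 ± 0.12 and 1.67 ± 0.15. Robo2 was at 69.8, 43.8 and 62.5 RPKM in GFP+ libraries and 17.3, 13.8 and 13.5 in GFP- libraries. The semaphorin gene Sema3a fell by 4.19 ± 0.14 and the semaphorin receptor gene Plxnd1 by 2.67 ± 0.09.

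Growth regulators and the cell cycle were less uniform. Of 13 tested genes of heterochronic RNA binding and growth 6 rose and 4 fell (15 listed, median 0.14), beside 30.1% and 23.3% of all genes. Only 2 fell without pair 1, without pair 2 or with all 15 libraries in 1 fit. Myc rose by 1.41 ± 0.10, with 47.4, 48.4 and 49.2 RPKM in GFP+ libraries and 19.6, 16.7 and 16.6 in GFP- libraries, and Hmga2, a chromatin protein of fetal cells, by 1.36 ± 0.10. The imprinted genes Plagl1 and Dlk1 fell by 4.82 ± 0.10 and 4.37 ± 0.13, and H19 was at 1315 to 1757 RPKM in GFP+ and 1320 to 1455 in GFP- libraries and was not called.

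Of 20 cell cycle genes 3 rose and 10 fell (median −0.26). The summed level of the list was 1109 to 1289 RPKM in GFP+ and 1594 to 1685 in GFP- libraries. Because the list includes inhibitors of the cycle, its sum is no measure of cell division. Top2a, a topoisomerase of dividing cells, was at 117, 115 and 115 RPKM in GFP+ and 113, 122 and 116 in GFP- libraries (−0.02, adjusted p = 0.9). The inhibitors of cyclin-dependent kinases went separate ways: Cdkn1a, which encodes p21, was at 14.0, 18.9 and 14.9 RPKM in GFP+ libraries and 2.94, 3.28 and 2.75 in GFP- libraries (2.08 ± 0.11, adjusted p = 4.07e-06). Cdkn1c, which encodes p57, fell by 2.04 ± 0.12, and the cyclin gene Ccnd2 by 2.59 ± 0.17.

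Of 19 tested glycolysis genes 9 rose and 3 fell (20 listed, median 0.36). The rises were small, 0.36 to 0.56, with Eno1, enolase, at 393, 477 and 223 RPKM in GFP+ and 244, 304 and 177 in GFP- libraries. The number that rose was 4 without the block, 2 with all 15 libraries in 1 fit, 3 without pair 1 and 5 without pair 2, and Eno1 was called in none of these. Slc2a3, a glucose transporter gene, fell by 2.79 ± 0.15, at 0.486 to 0.725 RPKM in GFP+ and 8.25 to 11.3 in GFP- libraries.

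Of 19 tested immediate early and stress genes 12 fell and none rose (20 listed, median −0.82). Fos, an early response factor, was at 54.9, 153 and 306 RPKM in GFP+ libraries and 210, 316 and 617 in GFP- libraries (−1.32 ± 0.19, adjusted p = 0.000815, or 0.106 without the block). The groups overlapped, but GFP+ was below GFP- in each of the 3 pairs, and pair 3 was highest in both fractions. Klf2 fell by 3.08 ± 0.21 and Atf3 by 2.67 ± 0.29. Of the list 6 fell without the block and 5 with all 15 libraries in 1 fit. Members were called higher under some alternatives, 1 without pair 1, 2 without pair 3, 2 after quantile normalisation, and 1 each with library weights or no filter on low values. Such genes can respond to tissue dissociation, and the part of handling in this difference was not tested.

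The 10 most abundant of the genes that were called higher were Eef2, Rps28, H3f3a, Stmn1, Erdr1, Pabpc1, Ddx5, Mif, Rpl37 and Anp32b. Eef2, a translation elongation factor, was at 1090, 1507 and 1025 RPKM in GFP+ libraries and 563, 677 and 674 in GFP- libraries (0.90 ± 0.22, adjusted p = 0.0106). Without pair 1, and again without pair 2, all but Erdr1 lost their call, while Eef2, for example, was still at 0.88 and 0.78. The call of Erdr1 was lost without the block (1.39 ± 0.14, adjusted p = 0.000129 with it).

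Since the reporter carries Six2 sequence, the genes around Six2 were listed. Within 1 Mb of its start lie 9 other protein-coding genes in GENCODE M21, of which 8 were in the table, 7 were tested and 4 were called, a share near the 53.4% of all genes. Six3, whose start lies 74.7 kb away, a homeobox gene known from eye and forebrain, had 52.3, 41.5 and 38.9 RPKM in GFP+ libraries and 0.791, 0.611 and 1.22 in GFP- libraries (4.6 ± 0.15, adjusted p = 4.75e-07). Lrpprc and Ppm1b rose by 0.51 ± 0.09 and 0.44 ± 0.10, Prkce fell by 0.50 ± 0.12, and Prepl, Camkmt and Srbd1 were not called. Ppm1b lost its call with equal column sums, and Prkce without pair 2 or with all 15 libraries in 1 fit. The fold change of Six3 was thus larger than those of the other tested neighbours beside Six2. RefSeq and GENCODE place the start of Six3 at different positions, so the 250 bases shown for it lie inside the GENCODE gene. Their starts of Six2 differ too, and the last of the bases shown for Six2 lie inside its GENCODE gene.

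**Figure D4:**
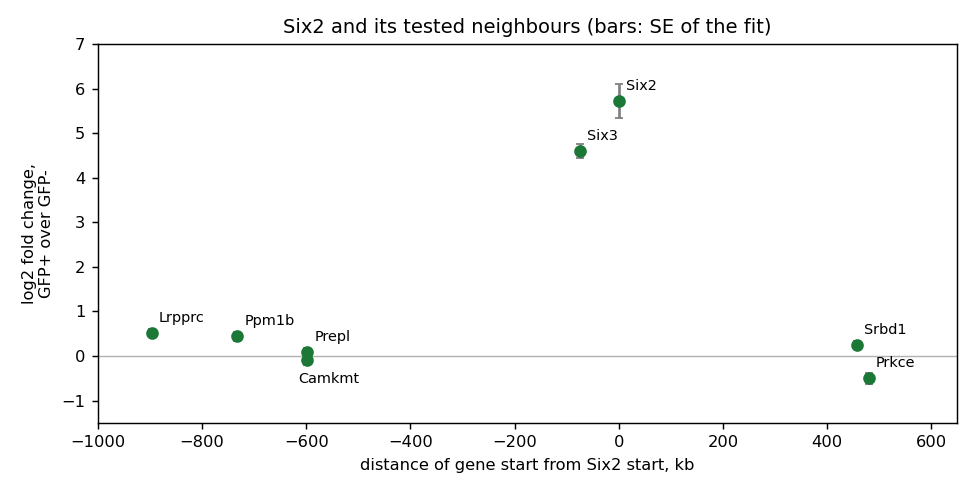
Log2 fold change of GFP+ over GFP- cells for the 8 tested genes within 1 Mb of Six2, against the distance of their start from that of Six2 in kb, with SE bars. Six2 (5.73) and Six3 (4.6) stand above the other 6, which lie between −0.50 and 0.51.

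Nephron progenitors were also sorted at E16.5 with an antibody against SIX2 from cells of the nephrogenic zone, the outer rim of the kidney, of CFW embryos for which the labels give no allele (3 SIX2+ and 3 SIX2- libraries). Sort method, fixation and the tissue taken differ together between the sorts, the allele carried may differ too, and these cannot be told apart. The difference between the GFP and the antibody fold change was called for 380 of 12616 genes tested (3.01%), 228 larger (1.81%) and 152 smaller (1.20%) in the reporter sort. This count depended on the replicates used: it was 97 without replicate 1, 16 without replicate 2 and 848 without replicate 3, and 141 without the block. Leaving out a replicate removed the pair of that number from both sorts at once. For Six2, Crym, Eya1 and Cited1 the difference was not called, at 1.01 ± 0.72, 0.55 ± 0.54, 0.58 ± 0.45 and −0.82 ± 0.69, although that of Six2 was called without replicate 3 (adjusted p = 0.0302).

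Wnt4 and Pax8 were enriched by the reporter and not by the antibody. Wnt4 was at 40.4, 38.4 and 16.8 RPKM in SIX2+ libraries and 28.6, 53.9 and 40.3 in SIX2- libraries, which overlap, and its difference between sorts was 2.76 ± 0.37 (limma, adjusted p = 0.00968, or 0.135 without replicate 2). Pax8 was at 34.0, 41.1 and 38.9 RPKM in SIX2+ libraries and 35.4, 65.6 and 49.5 in SIX2- libraries (−0.35, adjusted p = 0.0319), with a difference of 2.27 ± 0.16 (adjusted p = 0.00260), which stayed called in the alternatives run. Of 25 genes of induction and the renal vesicle 13 had a called difference toward a larger fold change in the reporter sort. None had a called difference toward a smaller one, and the rest were not called. Without replicate 2, 3 of these 13 stayed called, namely Pax8, Cdh6 and Jag1. Cdh6, a cadherin of the renal vesicle, was not called in the reporter sort (−0.18), was at −2.02 in the antibody sort and differed by 1.84 ± 0.21 (adjusted p = 0.00623, or 0.0665 without the block).

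**Figure D5:**
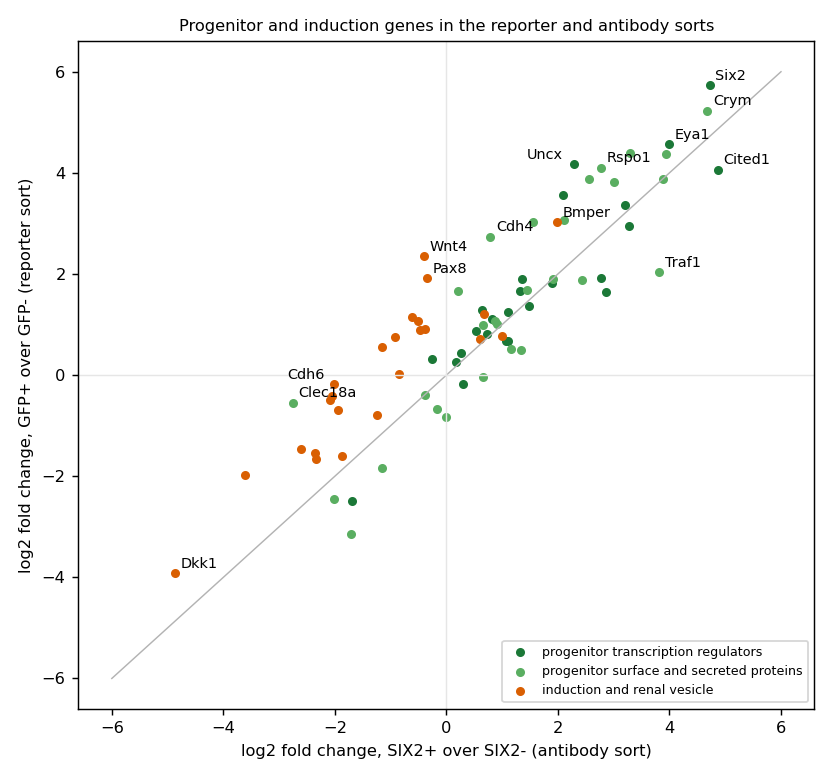
Log2 fold change in the reporter sort (vertical) against that in the antibody sort (horizontal) for members of the progenitor and induction lists, with the line of equality. Six2, Crym and Eya1 lie in the upper right, and Wnt4 (2.35 against −0.40) and Pax8 (1.92 against −0.35) lie above it.

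Six3 differed in level between sorts. It was at 15.2, 0.232 and 0.0251 RPKM in SIX2+ libraries and at 0.0617, 0 and 0 in SIX2- libraries, so that 1 of 3 SIX2+ libraries held it well above the others. In unsorted nephrogenic zone it was at 12.7, 5.16 and 0 RPKM. The difference between sorts, 3.17 ± 0.89, was not called (adjusted p = 0.105). What sets these libraries apart was not tested.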

How the data were processed

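Poly(A) RNA libraries were made with a stranded mRNA kit from Kapa after isolation with the RecoverAll and RNeasy Micro kits, per the labels' protocols. TopHat2, Partek and mm10 are named per the submitters' processing notes, without roles. The sources used here do not give the annotation or the use of strand in counting. In the table that the authors deposited each library has 1 value for a gene. These deposited values have the properties of RPKM although titled TPM: column sums varied by 7.99% (coefficient of variation, 15 libraries), and by 2.7% after multiplication by exonic length. Depth was estimated from low values and is approximate. No count model was used. Of the names, 96.0% were in GENCODE M21, from which positions came, and 27 names turned into dates are not reported. Promoters are from RefSeq (GRCm38.p6).

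Genes that reached 1 in at least 3 of 6 libraries were tested as log2(value + 1) with limma 3.58.1 in R 4.3.3 (eBayes with trend, two-sided, Benjamini-Hochberg adjustment over all genes tested), with the replicate number as a block and 2 residual degrees of freedom. Every adjusted p is limma's. The number was taken to pair samples, since deviations from the group means correlated at 0.50, 0.47 and 0.41 across genes between same-numbered libraries. The difference between sorts was fitted on 12 libraries with 6 pairs as blocks. The fit was run on simulated data in which only a small share of genes was changed, unlike here. That run therefore does not bear on the number of calls. Fold changes on this scale understate the change of low genes. Alternatives are another pseudocount, filter, scaling or variance model, no block, all 15 libraries in 1 fit, and each pair left out. Tables and figures used python 3.11.15 with matplotlib 3.10.9, pandas 2.3.3 and numpy 2.4.6, and the R package data.table (version 1.17.8).

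The comparison and the 30 gene lists were chosen with earlier results of these data known. Named are the 4 markers, the 12 genes with the largest called change in each direction (higher group at a mean of 5 or more, no overlap, no predicted genes), the 10 most abundant called higher, up to 4 called members per list with the largest change, the neighbours of Six2, and the 4 largest called differences between sorts in each direction. Some genes that meet these rules are left out of the text. Other genes named were chosen after their values were seen. The E14.5 table was not used here.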

Additional observations from a re-analysis of the deposited data

Results flagged for a closer look

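The GFP and antibody fold changes differed by test for 380 genes (limma, adjusted p under 0.05), and for 16 without replicate 2. Among genes named for the GFP comparison or for this difference, it was larger in the reporter sort for Nxph1, which encodes a neurexin ligand (2.79), Wnt4 (2.76), Slit1, a guidance ligand (2.31), Pax8 (2.27), Uncx (1.90), Rspo1 (1.34), Nell1 (1.10) and Cldn9 (0.93). Nxph1 was at 13.4, 12.4 and 10.5 RPKM in GFP+ libraries and 0.171, 0.139 and 0.107 in GFP- libraries, where SIX2+ libraries had 2.75, 0.257 and 0.0906 and SIX2- libraries 0.0636, 0.0518 and 0. Slit1 was at 23.6, 15.2 and 31.7 RPKM in GFP+ libraries and 0.609, 0.704 and 1.38 in GFP- libraries, and at 5.73, 6.56 and 6.17 in SIX2+ and 0.989, 1.63 and 3.27 in SIX2- libraries. Of these 8 genes, Pax8 alone stayed called without replicate 2.

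Red cell genes had the most negative differences among the named genes: Hbb-b2 and Hbb-bt −5.24, with identical values, Hba-a1 −4.95, and Alas2, the red cell enzyme of haem synthesis, −4.49. Hba-a1 was at 3.55 to 14.9 RPKM in GFP+ and 241 to 2512 in GFP- libraries, and at 0.0847 to 0.791 in SIX2+ and 1.25 to 5.44 in SIX2- libraries. All 4 lost their call without replicate 2 (adjusted p 0.292 to 0.360).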

How the results depend on the processing

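The number of calls (6427; 3626 higher, 2801 lower) was 4766 without the replicate block (2471 and 2295), all 4766 among the calls with it. With all 15 samples in 1 fit it was 4008, with 1997 higher. With equal column sums 2340 were higher, and with values of at least 5 in at least 3 of 6 libraries 1808 were lower. Leaving out a pair gave 4721 to 7681 calls, 2457 to 4428 higher and 2264 to 3253 lower. The difference between sorts, 380 genes, was 141 without the block and 16 to 848 with a replicate left out. The cause of these moves was not tested. Of 143 named genes tested, 119 kept direction and call in the GFP comparison under all 14 alternatives, 142 kept direction, and Camkmt (−0.08, not called) was at 0.11 after quantile normalisation and at −0.14 to 0.02 with a replicate left out. Depth limits genes under 1 RPKM, and with 2 residual degrees of freedom the spread of a gene is largely borrowed from other genes. With a pair left out still fewer remain, so a call kept there says little about the spread of that gene itself.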

Other observations

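A set of genes was close to absent from 1 fraction, a description whose limits were chosen after the values were seen. At least 5 RPKM in all GFP+ libraries and under 1 in all GFP- libraries was found for 18 genes, and the reverse for 143. The 18 include the growth factor genes Fgf20 and Fgf1 (8.88 to 10.3 RPKM in GFP+ and 0.5 to 0.566 in GFP- libraries), Ocm, a calcium-binding protein, and Cftr, a chloride channel (6.33 to 9.10 and 0.611 to 0.845). Also among them are Trim63, a muscle ubiquitin ligase (6.24 to 7.36 RPKM in GFP+ and 0.103 to 0.344 in GFP- libraries), Mrln, a regulator of the calcium pump (5.50 to 7.70 and 0.0855 to 0.756), and Colq, the collagen tail of acetylcholinesterase (8.88 on average in GFP+ and 0.26 in GFP- libraries). The 143 include Pdgfra, Ogn, a matrix proteoglycan (0.183 to 0.605 in GFP+ and 43.1 to 76.7 in GFP- libraries), and Cd248, a stromal surface protein (0.448 to 0.853 and 44.3 to 65.0).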
